A study of Rattus norvegicus with 15 samples.

Results

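Transcripts of 10 genes for secreted growth factors that keep neurons alive and adjust their synapses, and for the receptors of these factors, were followed in the ventral tegmental area, the midbrain region of the mesolimbic dopamine neurons. The genes were chosen by name: Bdnf, Ntf3, Gdnf, Igf1, Fgf2 and Vgf on the ligand side and Ntrk2, Ntrk3, Gfra1 and Igf1r on the receptor side. All probe sets that the array annotation gives exactly 1 of these symbols were taken, which made 19 of the 31099 probe sets in the table, for 10 of the 14217 genes that the annotation names singly. Of these 19, 15 probe sets of 8 genes had a mean over all rats at or above the 40th percentile, a log2 value of 6.94, and entered the main test. Gdnf and Fgf2 are described from values below that level.

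The rats were alcohol-preferring (P) animals, a line bred for high voluntary intake, and the series title speaks of loss-of-control drinking. The ethanol group held 7 rats and the water group, age-matched controls of the same line, held 8. Each rat gave 1 array made from 25 ng of total RNA through 2 rounds of amplification. Sex, age, litter and the interval between the last drink and tissue collection were not stated in the labels, so p-values measure the spread between these rats. Across the array 173 of 18625 tested probe sets, or 0.929%, passed an adjusted p of 0.05 in limma. The tissue label was matched by high signal of dopamine neuron transcripts in every rat. Th, the rate-limiting enzyme of dopamine synthesis, averaged 14.94 ± 0.22 log2 units in ethanol rats and 14.80 ± 0.26 in water rats (SD, n = 7 and 8).

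BDNF and neurotrophin-3 are secreted proteins that bind the receptor tyrosine kinases TrkB, encoded by Ntrk2, and TrkC, encoded by Ntrk3. GDNF binds GFRα1, encoded by Gfra1, and the pair then engages the kinase Ret. This pathway is best known in the midbrain for supporting dopamine neurons, and BDNF and GDNF are both studied in rodents for their part in alcohol drinking. IGF-1 acts through its own receptor kinase and FGF-2 through the FGF receptors, while VGF is a neurosecretory protein that neurons make under the control of neurotrophins and of activity.

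None of the 15 tested probe sets differed between ethanol and water rats at an adjusted p of 0.05 in limma, where 0.929% of all tested probe sets did. At an unadjusted p of 0.05, 1 of the 15 passed in limma and 1 in the exact permutation test over rats, against 12.1% of all tested probe sets in limma. The smallest adjusted p was 0.411. In none of the 19 probe sets did the ranges of the groups separate, against 0.623% over the array. Means were higher in ethanol rats for 10 of the 15, beside 53.3% over the array. Outside Igf1, the largest difference in size was 0.19 log2 units, and the 95% confidence intervals ran from 0.798 to 1.40 times the water level at their widest. The call of 0 was the same in each of the 15 fits that left out 1 rat.

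**Figure D1:**
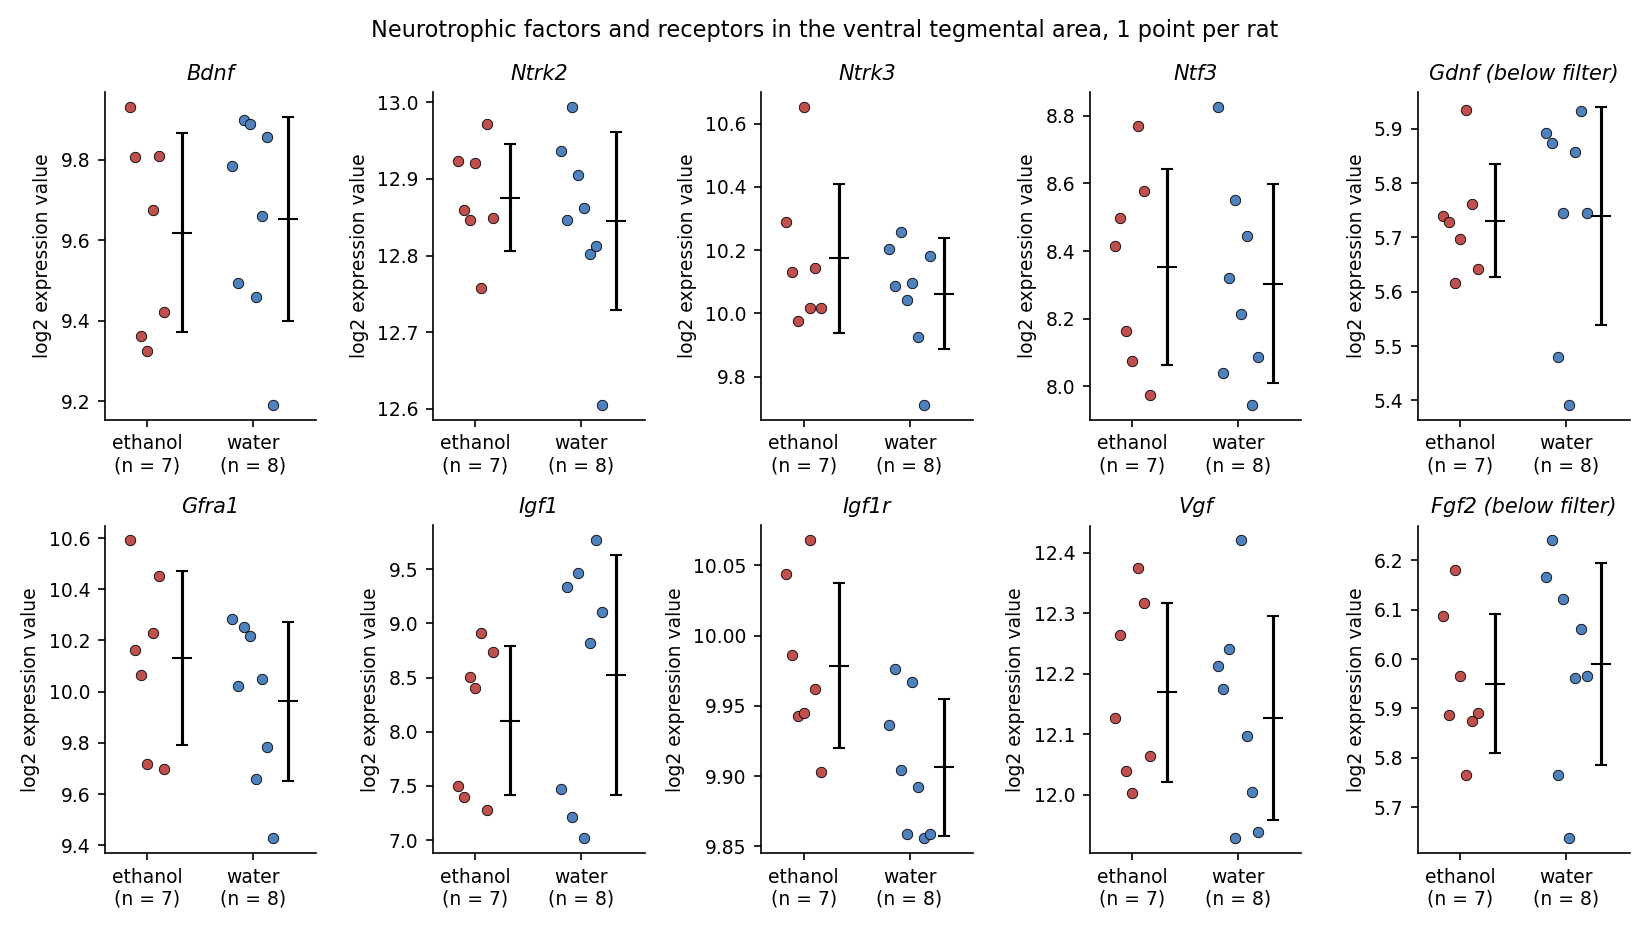
Log2 expression values of the probe set with the highest mean for each of the 10 genes, with 1 point per rat, ethanol rats in red on the left (n = 7) and water rats in blue on the right (n = 8), and bars for mean ± SD; each panel has its own scale, which does not start at 0. The groups overlap in every panel, and Igf1 has the widest range, from 7.02 to 9.77 log2 units.

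Bdnf, the main TrkB ligand, was at the same level in both groups within the spread between rats. Its brighter probe set (1368677_at) ranged from 9.32 to 9.93 log2 units with a median of 9.67 in ethanol rats, against 9.19 to 9.90 with a median of 9.72 in water rats. In the ethanol group 6 of 7 rats lay inside the water range. The difference was -0.035 log2 units (SE 0.12, 95% interval -0.28 to 0.21, limma adjusted p = 0.933). The dim probe set (1368678_at) had a mean less the filter of -0.23 and lay at 6.70 ± 0.11 in ethanol rats and 6.72 ± 0.09 in water rats (SD, n = 7 and 8), and differed by -0.024 (SE 0.053). Both Bdnf probe sets moved together from rat to rat (r = 0.80 over the deviations of 15 rats from their group means).

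Vgf, whose protein is cut into secreted peptides, was one of the steadier members. It ranged from 12.002 to 12.37 with a median of 12.13 in ethanol rats and from 11.93 to 12.42 with a median of 12.14 in water rats. All 7 ethanol rats lay inside the water range. The difference was 0.042 log2 units (SE 0.077, 95% interval -0.12 to 0.21, adjusted p = 0.860). On the linear scale that interval ran from 0.920 to 1.15 times the water level.

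Bdnf and Vgf are textbook targets of the transcription factor CREB, and immediate early transcripts, many of which share that control, were lower on average in the same ethanol rats. Their list, chosen for neuronal activity, had 10 of 19 genes measured. All 10 had lower means in ethanol rats, where 50.9% of all genes had higher ones. Their median was -0.24 log2 units beside 0.0017 over all genes. None passed the test. At an unadjusted p of 0.05 in limma 5 of the 10 passed, beside 1272 of all 10252 genes. Egr1, a zinc finger factor, was at 9.04 ± 0.41 in ethanol rats and 9.66 ± 0.21 in water rats (SD, n = 7 and 8, limma adjusted p = 0.0689). Fos, a subunit of AP-1, was at 9.45 ± 0.42 in ethanol rats and 10.04 ± 0.20 in water rats (SD, n = 7 and 8, limma adjusted p = 0.0872). Dusp1, a phosphatase that turns off MAP kinases, differed by -0.42 (SE 0.13, adjusted p = 0.184). Bdnf and Vgf stood at -0.035 and 0.042 beside them; the difference between these genes and the immediate early list was not tested.

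The start regions of these genes are shown because they carry the letters of the cyclic AMP response element, the site that CREB reads. The 250 bases before each annotated start were searched on both strands for TGACGTNA, which covers the full palindrome TGACGTCA and a variant with 1 base free. RefSeq windows of the GRCr8 assembly were found for 8 of the 10 genes, 15 windows in all, 6 of them for Bdnf. Ntrk2 and Ntrk3 had no entry. A match was present in 2 of the 15 windows, 1 of Vgf and 1 of Bdnf, beside 2.88% of the 33469 windows in the table. The Vgf window lies on the minus strand at chr12:25277021-25277270, with TGACGTCA beginning at position -90 from the start. The Bdnf window, the fourth of 6 along the chromosome, lies on the plus strand at chr3:116637608-116637857, with TCACGTCA, the motif read from the other strand, beginning at position -38. Both are printed 5′ to 3′ with the match in capitals. Which start the Bdnf signal comes from was not determined, and a match in letters is not a measured binding site.
Vgf: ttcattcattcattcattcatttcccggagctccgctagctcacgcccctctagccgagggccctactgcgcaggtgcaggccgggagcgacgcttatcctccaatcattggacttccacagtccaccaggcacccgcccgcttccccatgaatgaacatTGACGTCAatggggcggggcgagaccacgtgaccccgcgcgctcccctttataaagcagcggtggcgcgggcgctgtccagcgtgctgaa
Bdnf: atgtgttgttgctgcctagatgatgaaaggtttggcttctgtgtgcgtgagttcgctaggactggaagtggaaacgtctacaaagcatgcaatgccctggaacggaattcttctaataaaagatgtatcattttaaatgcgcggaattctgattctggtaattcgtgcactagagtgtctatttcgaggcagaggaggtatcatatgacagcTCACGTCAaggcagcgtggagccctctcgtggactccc

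Ntf3, which encodes the TrkC ligand neurotrophin-3, had one of the widest spreads between rats. It ranged from 7.97 to 8.77 with a median of 8.42 in ethanol rats, against 7.95 to 8.83 with a median of 8.27 in water rats. All 7 ethanol rats lay inside the water range, and the difference was 0.050 (SE 0.14, 95% interval -0.24 to 0.34, adjusted p = 0.915). Its direction turned to -0.020 without ethanol rat 6 and to -0.0017 without water rat 7.

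Gdnf, the ligand of the GFRα1 and Ret pair, was dim. It ranged from 5.62 to 5.93 with a median of 5.73 in ethanol rats and from 5.39 to 5.93 with a median of 5.80 in water rats. Its mean less the filter was -1.21 log2 units, so its difference of -0.0086 (SE 0.079, unadjusted p = 0.914) comes from the fit without a filter. Fgf2, a growth factor that astrocytes make in abundance, was also dim, from 5.76 to 6.18 with a median of 5.89 in ethanol rats and from 5.64 to 6.24 with a median of 6.01 in water rats. It differed by -0.040 (SE 0.085, unadjusted p = 0.644). At such signal RMA compresses differences, so a change in either gene may not have been detectable here.

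Ntrk2 was measured by 5 probe sets, all above the filter. The brightest (1383135_at) ranged from 12.76 to 12.97 with a median of 12.86 in ethanol rats and from 12.61 to 12.99 with a median of 12.85 in water rats. All 7 ethanol rats lay inside the water range, and the difference was 0.030 (SE 0.051, 95% interval -0.077 to 0.14, adjusted p = 0.848). The other 4 probe sets differed by -0.0015 (1397246_at), 0.052 (1368972_at), 0.026 (1370687_a_at) and -0.12 (1370652_at), with adjusted p from 0.637 to 0.993. The probe set at -0.12 was at 8.52 ± 0.12 in ethanol rats and 8.64 ± 0.25 in water rats (SD, n = 7 and 8). All 7 ethanol rats lay below the water mean there, but water rat 3 stood highest at 9.19, and without it the difference was -0.045. The 5 probe sets did not vary as one: their pairwise r over rats ran from 0.12 to 0.90. TrkB exists as a full-length kinase and as truncated forms, and which form each probe set reads was not determined.

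Ntrk3, the TrkC receptor, ranged from 9.98 to 10.65 with a median of 10.13 in ethanol rats and from 9.71 to 10.26 with a median of 10.09 in water rats. Ethanol rat 5 was highest at 10.65, and the other ethanol rats reached 10.29. The difference was 0.11 (SE 0.098, 95% interval -0.095 to 0.32, adjusted p = 0.675), and 0.032 without ethanol rat 5.

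Gfra1, the GDNF-binding receptor subunit, was higher on average in ethanol rats in both of its probe sets, with overlap. The brighter (1387007_at) ranged from 9.70 to 10.59 with a median of 10.16 in ethanol rats, against 9.43 to 10.28 with a median of 10.04 in water rats. The highest values were those of ethanol rats 1 and 7, at 10.59 and 10.45, and the lowest that of water rat 8, at 9.43. The difference was 0.17 (SE 0.15, 95% interval -0.15 to 0.49, adjusted p = 0.684). The other probe set (1367954_at) was at 8.28 ± 0.28 in ethanol rats and 8.08 ± 0.24 in water rats (SD, n = 7 and 8), a difference of 0.19 (SE 0.12, adjusted p = 0.558). Without ethanol rat 1 these differences were 0.093 and 0.13.

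Igf1r, the IGF-1 receptor, came nearest to the threshold. Its brighter probe set (1392492_at) ranged from 9.90 to 10.07 with a median of 9.96 in ethanol rats and from 9.86 to 9.98 with a median of 9.90 in water rats. Of the ethanol rats 6 of 7 lay above the water mean and 4 of 7 inside the water range. The difference was 0.072 log2 units, 1.05 times the water level (SE 0.034, limma unadjusted p = 0.0494, adjusted p = 0.411; exact permutation p = 0.0224 before adjustment, not passed after it). The second probe set (1368123_at) was at 9.06 ± 0.14 in ethanol rats and 9.02 ± 0.09 in water rats (SD, n = 7 and 8) and differed by 0.039 (SE 0.057, adjusted p = 0.818).

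**Figure D2:**
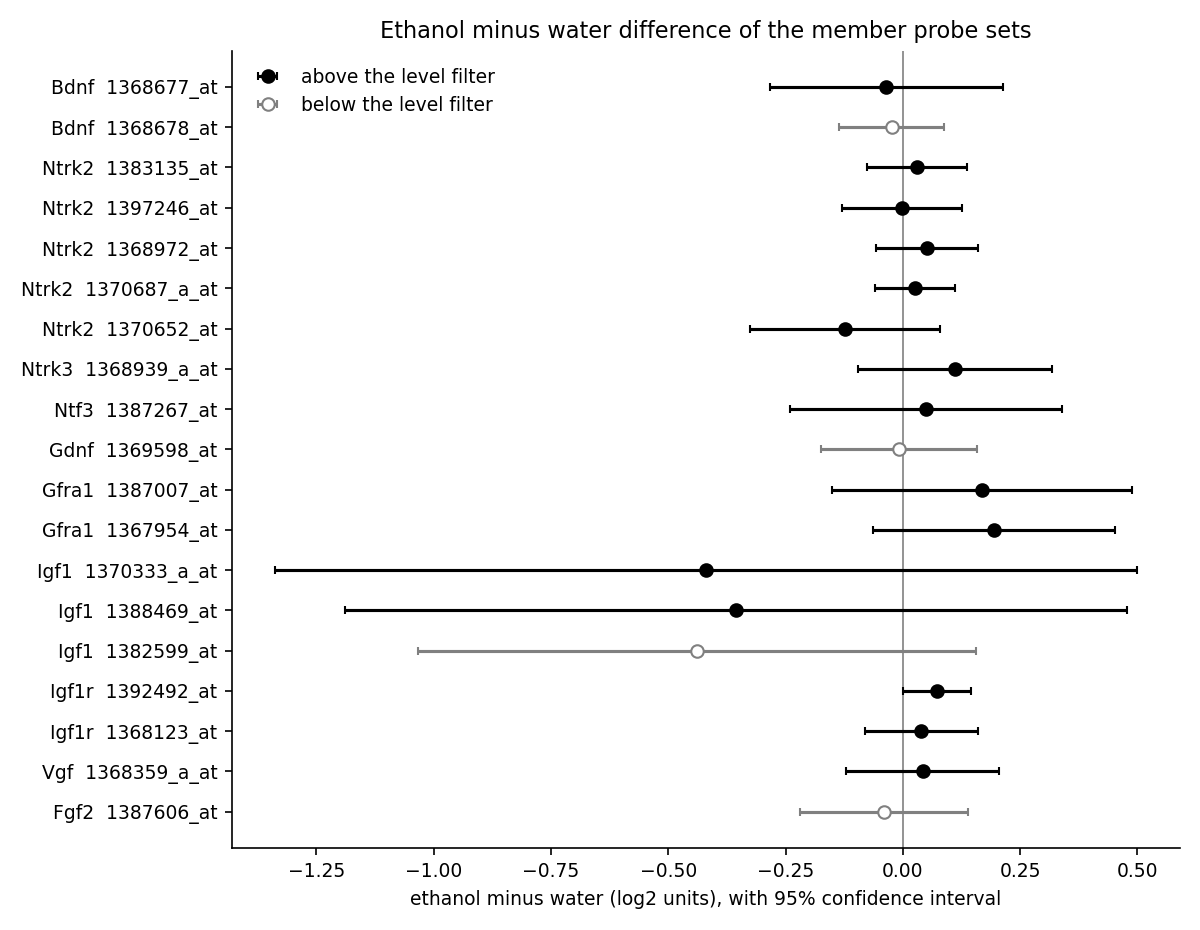
Ethanol minus water difference of each of the 19 probe sets in log2 units with its 95% confidence interval, filled points above and open points below the level filter. Intervals of 18 probe sets span 0, those of Igf1 are the widest, and that of Igf1r probe set 1392492_at has its lower end at 0.000205.

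Igf1, made in the brain by subsets of neurons and by microglia, varied far more between rats than any other member. In ethanol rats its brightest probe set (1370333_a_at) read 7.50, 7.40, 8.51, 8.40, 8.91, 7.28 and 8.73 in rats 1, 2, 4, 5, 6, 7 and 8. In water rats 1 to 8 it read 7.47, 9.33, 7.21, 9.47, 7.02, 8.82, 9.77 and 9.10. Both groups therefore held low and high rats: 3 ethanol and 3 water rats lay at or below 7.50, the other 9 rats lay at or above 8.40, and no rat lay between.

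The same 6 rats were lowest in every Igf1 probe set. In probe set 1388469_at they lay at or below 6.55 and the others at or above 7.26. The pairwise r of the 3 Igf1 probe sets over rats ran from 0.93 to 0.96. The within-group SD of the brightest was 0.94 log2 units, and 0.123% of tested probe sets had a larger one, where the median was 0.11.

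On average Igf1 was at 8.10 ± 0.69 in ethanol rats and 8.52 ± 1.11 in water rats (SD, n = 7 and 8). The difference was -0.42 log2 units, 0.748 times the water level, with a 95% interval from 0.396 to 1.41 times (SE 0.43, adjusted p = 0.732). The other tested probe set differed by -0.36 (SE 0.39, adjusted p = 0.752) and the dim one (1382599_at) by -0.44 (SE 0.28, unadjusted p = 0.139). All 7 ethanol rats lay inside the water range. Without water rat 7, the highest, the difference was -0.24, and without water rat 5, the lowest, it was -0.63. Microglial markers moved in the same comparison: 3 of 12 measured genes of that list rose and none fell, where 51 of all 10252 genes rose and 66 fell. The microglial list mean ran from 9.53 to 9.82 in ethanol rats and from 9.22 to 9.63 in water rats. None of those 3 calls held in the exact permutation test or with the replicate number as a block. Over the deviations of 15 rats from their group means, Igf1 and the microglial list mean had r = -0.33 and rho = -0.29. Neither passed (permutation adjusted p = 0.545 and 0.633). Whether microglia had a part in the Igf1 values was not tested beyond this.

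The genes whose pattern over rats was most like that of Igf1, among 10251 others, were Lgals1 (r = 0.97), Nefl (0.96) and Nefm (0.96), over the deviations of 15 rats from their group means. Nefl and Nefm encode neurofilament proteins of large, fast-conducting axons, and Lgals1 encodes the lectin galectin-1. These genes were picked for their r out of all genes, so no p is given, and each r spans the split into low and high rats. Among the 6 low rats r with Nefm was 0.75 and rho 0.71. Among the 9 high rats r was 0.44 and rho 0.40. For Nefl r was 0.61 among the low rats and 0.39 among the high rats. For Lgals1 r was 0.50 among the low rats and 0.57 among the high rats. The genes and the split were both taken from these same values, so no p is given within the sets either. No relation within them is claimed. Nefm itself was at 13.70 ± 0.80 in ethanol rats and 13.82 ± 1.31 in water rats (SD, n = 7 and 8, limma adjusted p = 0.945). Slc17a6, the vesicular transporter of glutamate neurons in this region, also had a wide spread, at 11.93 ± 0.61 in ethanol rats and 12.22 ± 1.08 in water rats (SD, n = 7 and 8). Over 15 rats Ntrk2 ran against the mean of Nefl, Nefm and Nefh by rho (-0.775, permutation adjusted p = 0.0161) but did not pass by r (-0.65, permutation adjusted p = 0.0597). Against the general neuron markers, which include Nefl and Nefm, rho was -0.779 and r -0.64 (permutation adjusted p = 0.0161 and 0.0674). These values too span the split into low and high rats. They are for the brightest Ntrk2 probe set only, and those of the other Ntrk2 probe sets are not given.

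Gfra1, Bdnf and Ntf3 varied with the mean of the dopamine neuron transcripts from rat to rat. The share of all tested genes that follow this mean as closely is not given here. The relation is therefore not shown to be particular to these members. Of 12 dopamine neuron markers 8 were measured: Th, Slc6a3, Slc18a2, Ddc, Nr4a2, Foxa2, Drd2 and Aldh1a1. None was called, all 8 had higher means in ethanol rats, and their median difference was 0.16. Their mean ran from 12.69 to 13.39 in ethanol rats and from 12.51 to 13.20 in water rats.

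The deviation of Gfra1 from its group mean tracked that of the marker mean almost point for point (Pearson r = 0.99, Spearman rho = 0.98, 15 rats). The permutation p was 1e-05 for both, the smallest that 100000 resamples can give, and the adjusted p over 80 relations was 2.67e-04 for r. Without the 2 rats farthest from the median r was 0.98. It was 0.99 among the 7 ethanol rats (exact permutation p = 5.95e-04) and 0.99 among the 8 water rats (exact permutation p = 4.96e-05). Over single markers r ran from 0.59 for Foxa2 to 0.97 for Nr4a2, a nuclear receptor that dopamine neurons need. The dimmer Gfra1 probe set gave 0.82.

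Bdnf followed the same marker mean with r = 0.82 and rho = 0.79 (15 rats, permutation p = 2.90e-04 and 8.20e-04, adjusted p = 0.00580 and 0.0161). Without the 2 outermost rats r was 0.70, and within the groups it was 0.86 in ethanol rats (exact permutation p = 0.00952) and 0.78 in water rats (exact permutation p = 0.0247). Its dim probe set gave 0.70 over the 15 rats, 0.55 in ethanol rats (exact permutation p = 0.206) and 0.89 in water rats (exact permutation p = 0.00211). Over single markers r for Bdnf ran from 0.48 with Foxa2 to 0.86 with Nr4a2. For Ntf3 r was 0.73 and rho 0.75 (15 rats, permutation p = 0.00265 and 0.00183, adjusted p = 0.0424 and 0.0209). Without the 2 outermost rats it was 0.70, and it was 0.69 in ethanol rats (exact permutation p = 0.0879) and 0.76 in water rats (exact permutation p = 0.0303). Over single markers r for Ntf3 ran from 0.22 with Foxa2 to 0.85 with Ddc. In whole-tissue RNA fewer cells of a type and less RNA per cell cannot be told apart, so these relations do not say which of them differed between rats. With the marker mean added to the model, which was tried only once these relations had been seen, the Gfra1 difference between the groups was -0.024 (SE 0.036, limma adjusted p = 0.877) in place of 0.17. Given the r of 0.99 with that same mean, this shift is no separate evidence. The dimmer Gfra1 probe set stayed positive, at 0.065 (SE 0.079, limma adjusted p = 0.843). The brighter Bdnf probe set went from -0.035 to -0.16 (SE 0.076, limma adjusted p = 0.484).

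**Figure D3:**
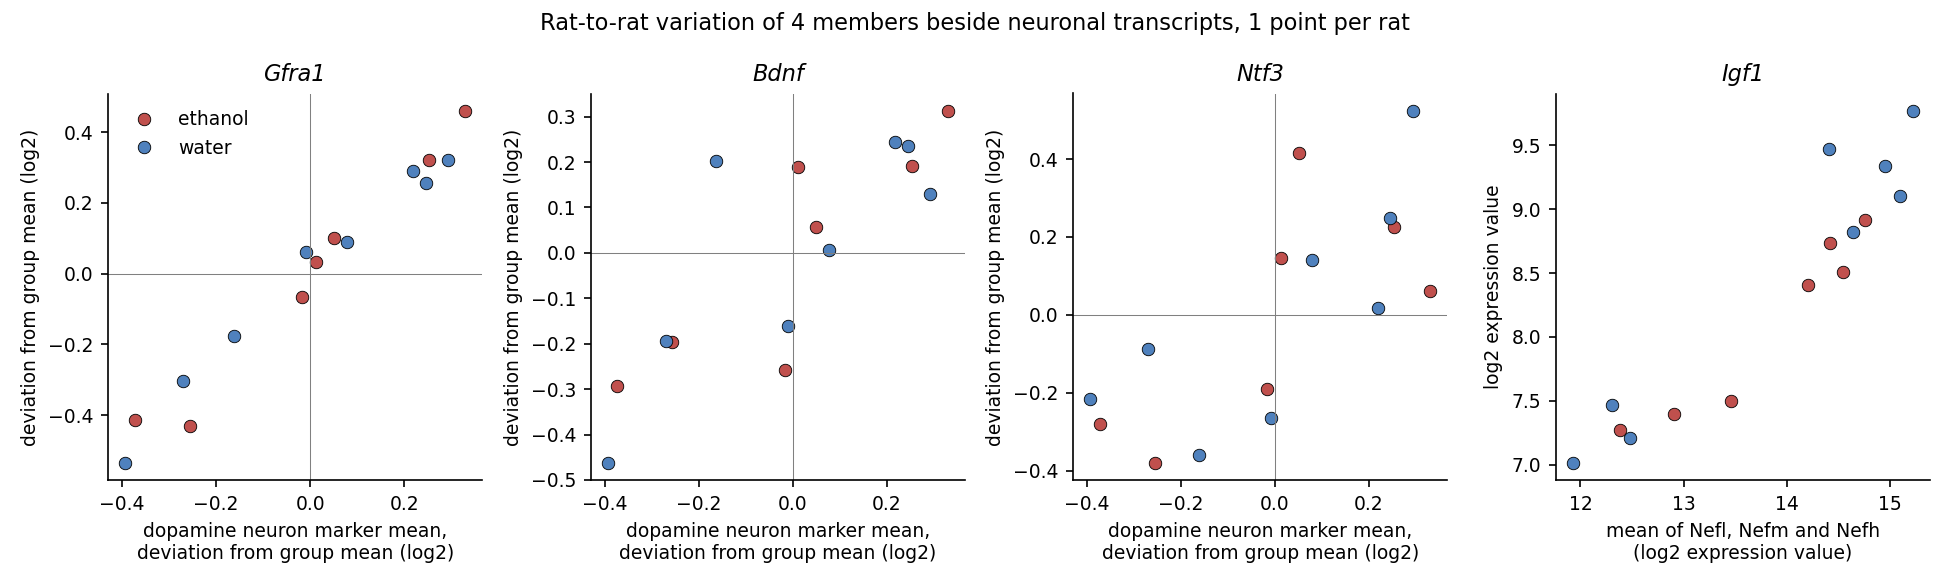
Deviation from the group mean of Gfra1, Bdnf and Ntf3 against that of the dopamine neuron marker mean, and the level of Igf1 against the mean of Nefl, Nefm and Nefh, all in log2 units with 1 point per rat (red ethanol, blue water). Gfra1 points lie close to a line (r = 0.99), Bdnf and Ntf3 points scatter more (r = 0.82 and 0.73), and Igf1 points fall into 6 low and 9 high rats.

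The genes most like Gfra1 over the 15 rats, among 10251 others, were Ret (r = 0.97), Nr4a2 (0.97) and Clptm1l (0.97). Ret encodes the signalling kinase of the GDNF receptor complex, and its transcript varied with that of Gfra1. These genes, like those of Ntf3 below, were picked for their r out of all genes, so no p is given. Ret was at 13.68 ± 0.22 in ethanol rats and 13.56 ± 0.23 in water rats (SD, n = 7 and 8). It differed by 0.12 (SE 0.11, limma adjusted p = 0.688). Nearest to Ntf3 were Gucy2c (0.86), a guanylyl cyclase receptor, Chrna6 (0.86), a nicotinic receptor subunit of dopamine neurons, and Dlk1 (0.85). None of these 6 passed the test between groups, with adjusted p from 0.453 to 0.803.

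Among the members themselves, 28 pairs were compared over the deviations of 15 rats. Leaving aside the 7 pairs with Igf1, whose values fall into separate sets of rats, 3 pairs passed an adjusted p of 0.05. The share of other gene pairs that vary together as closely is not given here. Bdnf varied with Gfra1 (r = 0.83, rho = 0.78, permutation p = 1.60e-04 and 9.30e-04, adjusted p = 0.00448 and 0.0260), and r was 0.72 without the 2 outermost rats. Ntf3 varied with Gfra1 as well (r = 0.71, rho = 0.75, permutation p = 0.00351 and 0.00212, adjusted p = 0.0328 and 0.0297), with r = 0.74 without the 2 outermost rats. Igf1r varied with Vgf (r = 0.72, rho = 0.69, permutation p = 0.00279 and 0.00576), at an adjusted p of 0.0328 for r and 0.0538 for rho. For that pair r was 0.70 without the 2 outermost rats. The ligand and receptor pairs Bdnf with Ntrk2 (r = 0.58, rho = 0.54, permutation p = 0.0188 and 0.0424, adjusted p = 0.0876 and 0.146) and Ntf3 with Ntrk3 (r = 0.044, rho = 0.075, permutation p = 0.876 and 0.792, adjusted p = 0.938 and 0.853) did not pass.

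Around the members, 154 genes of the same pathways were listed, and 98 were measured. Of these 98, 1 fell, none rose and 47 had higher means in ethanol rats, so 1.02% were called beside 1.14% of all 10252 genes. The gene that fell was Errfi1, a feedback inhibitor of the EGF receptor that corticosteroids also induce. It was at 10.71 ± 0.10 in ethanol rats and 11.10 ± 0.22 in water rats (SD, n = 7 and 8), a difference of -0.40 (SE 0.085, limma adjusted p = 0.0355). That call was lost in 12 of the 15 fits that left out 1 rat, with adjusted p up to 0.0886, and held without ethanol rat 4, water rat 4 or water rat 8. Spry1, which restrains FGF receptor signalling, was at -0.22 (SE 0.074, adjusted p = 0.233), and the list of feedback inhibitors and targets, 9 measured, had a median of -0.028.

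Receptors of the FGF family lay on both sides of 0. Fgfr3, found mostly on astrocytes, was at 11.33 ± 0.05 in ethanol rats and 11.49 ± 0.09 in water rats (SD, n = 7 and 8; difference -0.16, SE 0.041, limma adjusted p = 0.0890). Fgfr2, found on oligodendrocytes and astrocytes, was at 11.79 ± 0.10 in ethanol rats and 11.58 ± 0.12 in water rats (SD, n = 7 and 8; difference 0.21, SE 0.056, limma adjusted p = 0.109). Neither passed. The FGF list of 15 measured genes had a median of 0.033, with 9 higher and 6 lower means. It also holds Fgfbp3, Sdc2, Sdc3, Sdc4 and Gpc1, which are neither FGFs nor FGF receptors.

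In the insulin-like growth factor system, 12 genes measured, none passed and the median was -0.041. Igf2, a growth factor of the meninges and choroid plexus, was at 9.15 ± 0.35 in ethanol rats and 9.73 ± 0.36 in water rats (SD, n = 7 and 8; limma adjusted p = 0.135), lower than the water mean in all 7 ethanol rats. Htra1, a protease that cuts IGF binding proteins, differed by -0.23 (SE 0.091, adjusted p = 0.314). The meningeal marker Col1a2 moved with Igf2, at -0.68 (SE 0.19, adjusted p = 0.134), while Ptgds, of the same meningeal and choroid list, was at 0.082 (SE 0.056). Igf2 belongs to that list too. The mean of its other 3 measured genes, 2 of them lower in mean, ran from 9.997 to 10.57 in ethanol rats and from 10.11 to 10.97 in water rats. The choroid plexus markers Ttr, Folr1 and Kl had no probe set above the filter. Their part in the Igf2 values was not tested.

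The remaining lists held no call. Of 11 measured genes of neurotrophin receptors and processing, 8 had higher means (median 0.044), with Maged1 and Kidins220, both partners of neurotrophin receptors, at 0.11 (SE 0.042, adjusted p = 0.282) and 0.066 (SE 0.029, adjusted p = 0.384). Of 6 measured genes of the GDNF list, which also holds Manf and Ncam1 from outside that family, 3 had higher means (median 0.044). Pspn, the ligand persephin, was at -0.14 (SE 0.058, adjusted p = 0.357), and Manf, a secreted protein of the stressed endoplasmic reticulum, at -0.081 (SE 0.047, adjusted p = 0.508). All 8 granin and neurosecretory genes, the company of Vgf, were measured and 7 had higher means (median 0.054), with Scg2 at 0.10 (SE 0.055) and the peptide-amidating enzyme Pam at 0.093 (SE 0.050). The 27 measured receptor adaptors and kinases centred on -0.0065, led by Nras at -0.12 (SE 0.055, adjusted p = 0.393) and Mapk7, the ERK5 kinase, at -0.12 (SE 0.059, adjusted p = 0.429).

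**Figure D4:**
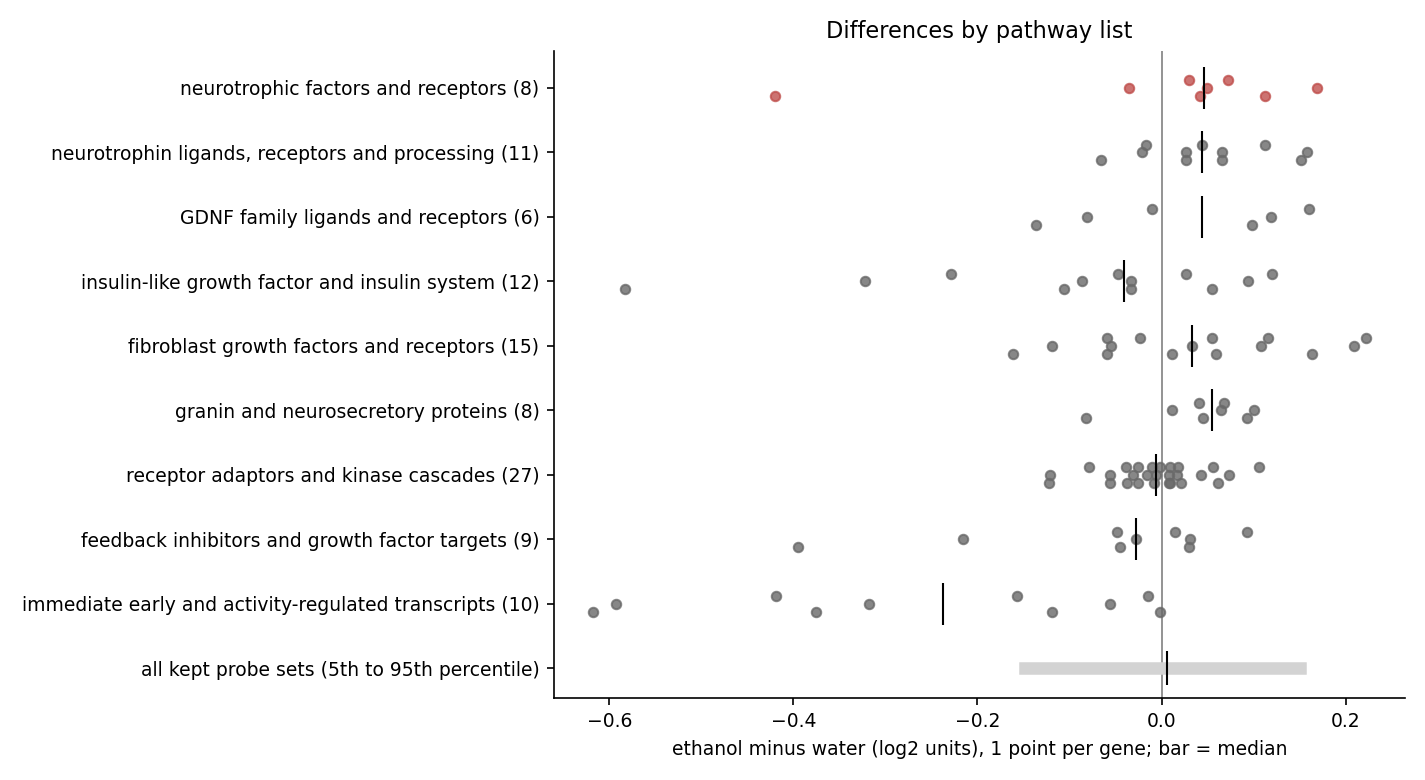
Ethanol minus water differences in log2 units, 1 point per measured gene, for the 8 members above the filter (red) and the 8 pathway lists (grey), with black bars for medians and, at the bottom, the span from the 5th to the 95th percentile of all tested probe sets. The member median is 0.046, and the immediate early list is the one whose 10 genes all lie below 0, at a median of -0.24.

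Markers of other cell types are given beside these results because the members are made by different cells. Of the 9 measured oligodendrocyte markers 3 fell and none rose (median -0.19), where 66 of all 10252 genes fell and 51 rose. The fall was led by Ugt8, a myelin lipid enzyme, at -0.69 (SE 0.11, limma adjusted p = 0.00413). Opalin, the 1 marker of the 9 with a higher mean in ethanol rats, was at 0.20 (SE 0.081, limma adjusted p = 0.327). Mbp, the brightest, was at -0.034 (SE 0.027, limma adjusted p = 0.637). With 1 rat left out Ugt8 was called in 15 of 15 fits, Mal in 6 and Cldn11 in 4. With the replicate block in limma none of these 3 was called (adjusted p = 0.0609, 0.186 and 0.166 in that order). In the exact permutation test Ugt8 was called (adjusted p = 0.0474), while Mal and Cldn11 were not (adjusted p = 0.0972 and 0.0893). The list mean ran from 13.23 to 13.56 in ethanol rats and from 13.48 to 13.92 in water rats. Among the microglial markers Tyrobp rose by 0.41 (SE 0.070, adjusted p = 0.00824) and Ctss by 0.36 (SE 0.079, adjusted p = 0.0411). In the exact permutation test their adjusted p were 0.0568 and 0.10015, and with the replicate block 0.0817 and 0.148. The Ctss call was also lost in 12 of the 15 fits that left out 1 rat. No astrocyte marker of 9 passed (median -0.047), with Gjb6 at -0.24 (SE 0.062, adjusted p = 0.0890) and S100b at 0.011 (SE 0.041). No GABA neuron, general neuron, oligodendrocyte precursor or endothelial and mural marker passed, with medians of 0.11, -0.0082, -0.00061 and 0.040.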

How the data were processed

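The authors deposited log2 values of 31099 probe sets on 15 arrays, made with RMA per the submitters' processing notes (no version stated). The method corrects background, gives all arrays the same intensity distribution and summarises probes, so it removes shifts common to most transcripts and compresses differences of dim ones. No table columns were left unused and no detection calls were used. Names came from GEO's platform annotation, checked by Entrez number against RefSeq (GRCr8): of 31042 non-control probe sets, 20826 had 1 symbol, 436 several and 9780 none listed. The array values name no genome assembly.

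Groups and rat numbers came from the sample titles. Probe sets with a mean at or above the 40th percentile (18625) entered a 2-group model without covariates (lmFit and eBayes of limma 3.58.1, R 4.3.3, two-sided), with Benjamini-Hochberg adjustment over all of them. The probe set with the highest mean stood for a gene. The exact permutation test ran over all 6435 divisions of the rats (smallest p 1.55e-04). Correlations used deviations from group means with 100000 resamples or, within groups, all permutations, two-sided. On simulated data for ethanol against water (18625 probe sets, 200 changed), 176 calls included 8 false ones. The number of arrays limits the precision. Members and lists were chosen with earlier results of these data known. Named were all members, the called or 2 lowest-p genes of each pathway list, of the cell type lists mainly the lowest-p and the brightest gene, and the 3 genes most like the 3 most variable members. Alternatives covered the level filter, the replicate number as a block, eBayes settings, array weights, centring, each rat left out, the test, the probe set for a gene, the correlation measure and, added after seeing the data, 2 covariates.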

Additional observations from a re-analysis of the deposited data

How the results depend on the processing

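The count of 0 called member probe sets held in every alternative run, and the smallest adjusted p of any member was 0.156, for Igf1 with the mean of Nefl, Nefm and Nefh as a covariate (difference -0.37, SE 0.12). The count over the array, 173, was 59 with the replicate block, 61 by the exact permutation test, 263 with the neurofilament mean as a covariate, and 100 to 180 with 1 rat left out, the lowest without ethanol rat 7 and 102 without ethanol rat 8. Rats of equal number did not visibly deviate alike: over 7 pairs the correlation of deviations ran from -0.41 to 0.29 with 4 above 0.1, and 1 ethanol rat correlated best with its own number. The sample titles do not say whether equal numbers mark pairs, and these correlations cannot settle it. Called pathway genes, 1 by the main test, were 0 with the replicate block, with the dopamine marker covariate and by the exact test, 2 with array weights and 0 to 2 with 1 rat left out. Called cell type markers, 6 by the main test, were 3 without a filter and with the dopamine marker covariate, 1 with the replicate block, 2 by the exact test and 3 to 7 with 1 rat left out. All 3 microglial rises were lost with the block and by the exact test. With the dopamine marker covariate 3 signs turned, to -0.0048 for Ntrk2 1383135_at, -0.080 for Ntf3 and -0.024 for Gfra1 1387007_at. Ntrk2 1397246_at turned to 0.027 with the replicate block and to 0.0086 with array weights, and the mean of all Ntrk2 probe sets was -0.0032. The block sets water rat 3 aside, as no ethanol rat has its number, and gave the same 0.027 as the fit without that rat. With 1 rat left out, signs turned within -0.10 to 0.014 for Bdnf 1368677_at, -0.046 to 0.0058 for 1368678_at, -0.0042 to 0.051 for Ntrk2 1383135_at, -0.042 to 0.027 for 1397246_at, -0.020 to 0.12 for Ntf3, -0.058 to 0.019 for Gdnf and -0.0017 to 0.069 for Igf1r 1368123_at. The causes of the other shifts were not tested. Signal near the lower end of the scale limits what can be said of Gdnf and Fgf2.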

Other observations

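In a setting added after seeing the data, the Igf1 difference was set beside neurofilament transcripts, which shared its split into low and high rats. With the mean of Nefl, Nefm and Nefh as a covariate the difference of its brightest probe set was -0.37 log2 units (SE 0.12, limma adjusted p = 0.156), against -0.42 (SE 0.43) without it. The second probe set gave -0.31 (SE 0.12, adjusted p = 0.209). The size of the difference was nearly kept while its SE fell to 0.12, and neither value passed over all probe sets. Nefl and Nefm had been named for their high r with Igf1 over these same rats. A smaller SE was therefore built in and is no separate support for a difference.

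Other members had neighbours of their own over the 15 rats, named here after their values were seen. Nearest to Bdnf were Nxph3, a secreted ligand of neurexins (r = 0.90), Dock11 (0.89) and St3gal5 (0.88). Nearest to Ntrk3 were Mn1 (0.94), Ikzf4 (0.92) and Necab2 (0.92), and nearest to Ntrk2 was Rnpep (0.94). In 38 groups of values, 19 probe sets in 2 groups of rats, no rat lay far enough from the others to pass Dixon's limit, where chance gives 1.9.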
